A study of Mus musculus with 4 samples.

Results

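The genes described here encode 10 surface receptors with which phagocytes take up dying cells, modified lipoproteins and microbial debris. They were taken by symbol from the gene count table, where 10 of 46078 gene rows matched, and each passed the filter on low counts that left 14995 genes for testing. The set comprised the receptor tyrosine kinases Axl, Mertk and Tyro3 (the TAM family), the TIM family genes Timd4 and Havcr2, the class B scavenger receptors Cd36 and Scarb1, the class A scavenger receptors Msr1 and Marco, and Stab1, which encodes stabilin-1.

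RNA came from 2 Il33flx libraries (genotype CD11c-cre-Il33flx/flx) and 2 Ctrl libraries (CD11c-cre alone), so both groups carried the Cre transgene, whose CD11c promoter is active in dendritic cells (DCs) and also in part of the macrophages. All mice had received EL4-Flt3 tumour cells 10 days before spleen and mesenteric lymph node were taken, and the age, sex and background strain of the mice were not given in the labels. DCs were sorted as CD45+, CD11b+, MHCII+ and CD103+ and as negative for CD64, a macrophage Fc receptor. Whether each library stands for its own mouse or a pool is not in the labels. A p-value here therefore sets the group difference against the scatter of these 4 libraries, and that scatter may be technical.

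A cell that dies by apoptosis exposes phosphatidylserine on its outer membrane. TIM receptors bind this lipid directly, whereas TAM receptors bind it through the bridging ligands Gas6 and protein S and then signal to dampen inflammation. Scavenger receptors bind polyanionic or oxidised ligands, and several of them also carry lipid into the cell. In mouse lymphoid tissue, type 1 conventional DCs, which present antigen from dead cells to CD8 T cells, are known to bear CD36 and TIM-3, the product of Havcr2, while Marco and Timd4 are best known from resident macrophages.

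The libraries held 67707682 and 69983532 gene counts in Il33flx and 81217828 and 75094424 in Ctrl. Ctrl 1 stood apart from the rest. The first principal component of log2 CPM, with 50.0% of the variance, placed Il33flx 1 at -26.2, Il33flx 2 at -25.2, Ctrl 1 at 70.1 and Ctrl 2 at -18.8, so results are given with and without Ctrl 1. Il33 itself had 4 and 0 counts in Il33flx and 4 and 8 in Ctrl, too few to check the genotype. Of the genes of the sort gate, Ptprc (CD45), Itgam (CD11b), Itgae (CD103) and H2-Ab1 (MHC class II) were read at 56.8 CPM or more in every library. Fcgr1 (CD64) was read at 3.66 to 5.50 CPM. The 10 type 1 DC markers summed to 9537 and 10500 CPM in Il33flx and 11580 and 10880 CPM in Ctrl. For the 11 type 2 DC markers the sums were 1070 and 932.1 CPM in Il33flx and 1148 and 983.8 CPM in Ctrl. Sums of different genes do not give shares of cells, and the part of each DC type in the receptor levels was not tested. Itgax, the gene of CD11c, had 359.1 and 407.1 CPM in Il33flx and 646.5 and 517 CPM in Ctrl, without overlap. Its log2 fold change was -0.60 ± 0.19 SE (unadjusted p = 0.0182, adjusted p = 0.995, edgeR).

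The promoters of 3 members are shown because these genes had the widest spread between libraries among the abundant members. Cd36 and Havcr2 were both lowest in Ctrl 1 and highest in Ctrl 2, whereas Axl was highest in Ctrl 1. Each line gives the 150 bases that end at the RefSeq transcription start of build GRCm38.p6, from 5′ to 3′ on the strand of the gene. Capitals mark the GC box GGGCGG and the PU.1-type site GAGGAAGT.
Cd36, chr5:17835897-17836046, minus strand: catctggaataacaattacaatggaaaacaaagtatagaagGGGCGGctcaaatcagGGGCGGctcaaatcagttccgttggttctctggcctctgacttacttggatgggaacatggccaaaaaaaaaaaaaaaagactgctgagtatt
Havcr2, chr11:46454781-46454930, plus strand: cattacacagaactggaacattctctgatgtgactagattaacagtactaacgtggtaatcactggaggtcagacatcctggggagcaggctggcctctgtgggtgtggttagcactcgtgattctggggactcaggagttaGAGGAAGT
Axl, chr7:25788734-25788883, minus strand: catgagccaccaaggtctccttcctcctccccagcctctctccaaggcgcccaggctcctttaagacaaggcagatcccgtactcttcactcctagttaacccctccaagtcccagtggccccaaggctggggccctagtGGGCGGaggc

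In the 250 bases before the start, searched on both strands, Cd36 held 2 GC boxes, which lie in a repeated stretch, and Axl held 1. Havcr2 held no GC box and 1 PU.1-type site, which ends at the last base before the start. Of 32851 RefSeq promoter windows of that length, 32.7% held a GC box and 2.44% a PU.1-type site. The GC content was 43.2% for Cd36, 44.8% for Havcr2 and 60.0% for Axl, against a median of 52.4% over all windows. Cd36 has further start sites upstream within its annotated span (chr5:17781690-17888801), and the counts do not tell which start was used. RefSeq windows were found for 8 of the 10 members. Msr1 and Scarb1 had none. Tyro3 and Mertk held 3 GC boxes each, while Marco, Timd4 and Stab1 held none, and these 5 had no PU.1-type site.

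The members differed from each other in level by more than they did between genotypes. Levels between genes were compared as TMM-normalized CPM per kb of exon, where CPM is the count scaled to the library total and TMM is edgeR's scaling between libraries. Cd36 and Havcr2 were the most abundant, with 134.6 and 130.5 CPM per kb in Il33flx and 92.5 and 185.8 in Ctrl for Cd36, and 138.6 and 133.2 in Il33flx and 91.3 and 150 in Ctrl for Havcr2. Both means lay near the 98th percentile of the genes tested (98.1 and 97.9), and the ranges of the 2 genes overlapped. Scarb1 came next at 39.0 and 41.2 CPM per kb in Il33flx and 55.95 and 45.8 in Ctrl, below the ranges of both and above that of every other member.

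Axl was the only member at an intermediate level, at 5.567 and 4.603 CPM per kb in Il33flx and 8.533 and 5.729 in Ctrl, at the 62.6th percentile. The other 6 were low. Timd4 had a mean over all libraries of 1.24 CPM per kb and Marco of 0.993, with overlapping ranges. Mertk followed at 0.433, Msr1 at 0.244, Stab1 at 0.154 and Tyro3 at 0.0285. Each of these overlapped its neighbour in the order, while the step between Marco and Mertk was clear of overlap.

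**Figure D1:**
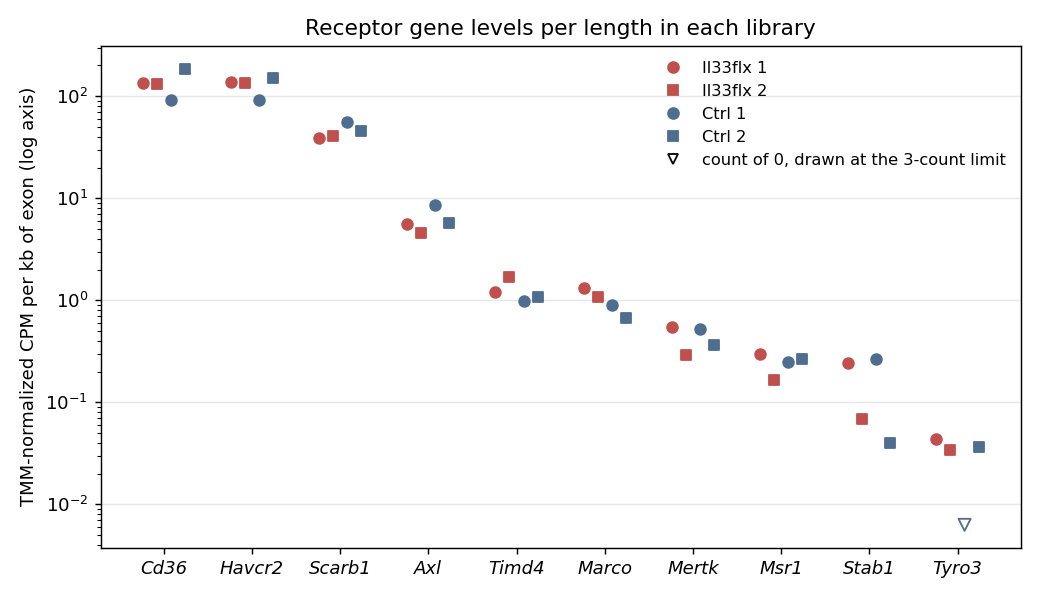
TMM-normalized CPM per kb of exon on a log axis for the 10 receptor genes, with 1 point per library (Il33flx in red, Ctrl in blue, circles for library 1 and squares for library 2) and an open triangle for the count of 0 of Tyro3 in Ctrl 1, drawn at the 3-count limit. Cd36 and Havcr2 lie at 91.3 CPM per kb or more, Scarb1 and Axl below them, and the other 6 genes at 1.70 or less.

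No member was called between the genotypes. Over all genes, edgeR's quasi-likelihood test called 1 gene, Gdpd3, at a Benjamini-Hochberg adjusted p below 0.05, which is 0.00667% of those tested, and 0 of the 10 members. At an unadjusted p below 0.05 there were 0 members as well, against 3.26% of all genes. DESeq2 also called 0 members and gave 0 an unadjusted p below 0.05, against 0.353% and 3.3% of all genes. So did limma-voom, against 0% and 3.41%. For 4 of 10 members both Il33flx libraries lay on the same side of both Ctrl libraries, 2 higher and 2 lower, where 30.3% of all genes did so. The median log2 fold change of the 10 was -0.01, against 0.01 over all genes, and 5 were positive and 5 negative. The test had little reach for small changes, since simulated counts with the spread of these libraries gave a call for 8 of 57 genes set to differ 2-fold. The same simulation gave a call for 61 of 73 genes at a 4-fold difference and for 67 of 70 at an 8-fold one. It also called 7 genes that were not set to differ. Only genes above a minimum level, which Tyro3 does not reach, were set to differ. Many genes were changed at once, which eases the adjusted threshold, and no simulated library stood apart like Ctrl 1. The reach in the real libraries may therefore be lower.

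**Figure D2:**
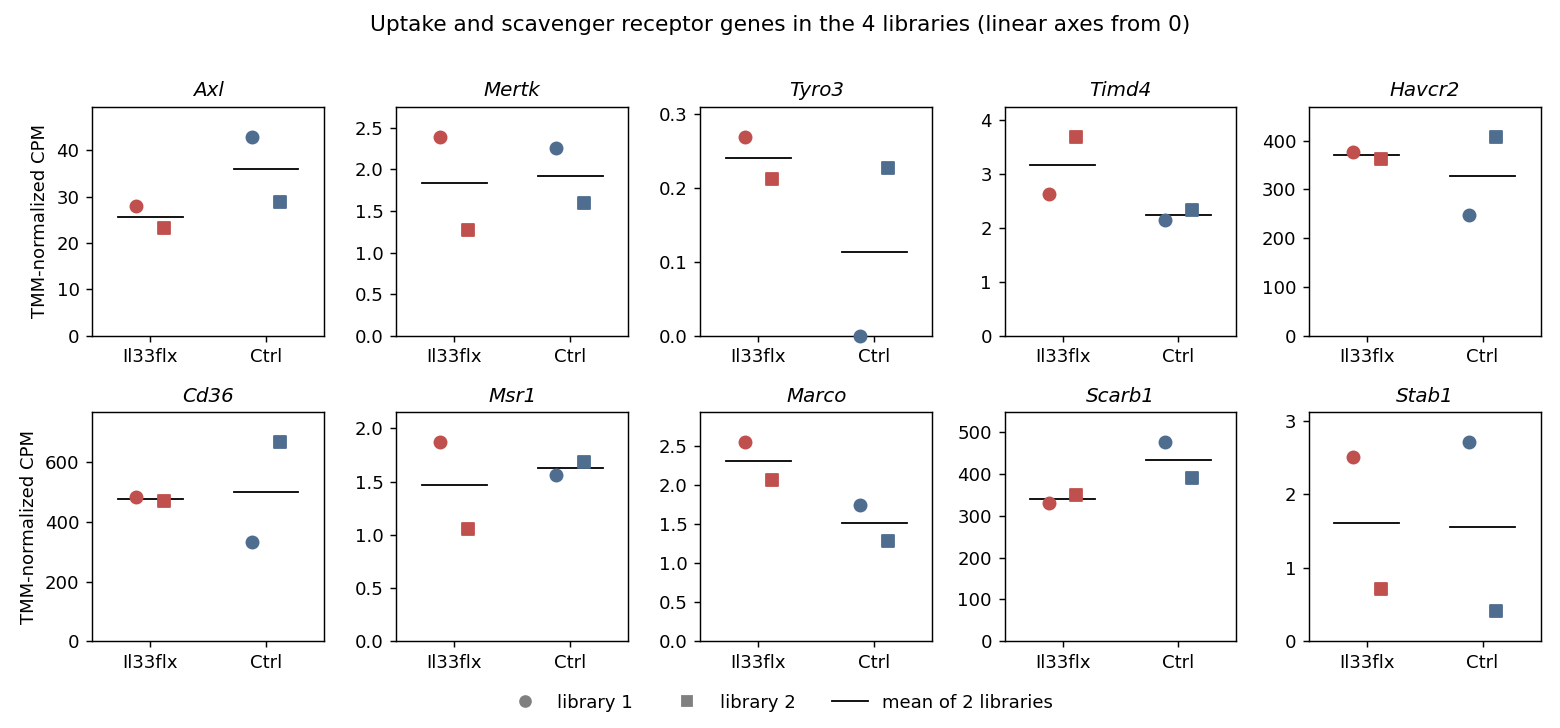
TMM-normalized CPM on linear axes from 0 in a panel per gene, Il33flx in red to the left of Ctrl in blue, with circles for library 1, squares for library 2 and lines for the mean of 2 libraries. The groups are apart for Axl and Scarb1, lower in Il33flx, and for Timd4 and Marco, higher in Il33flx, whereas the Ctrl libraries span the Il33flx values for Cd36 and Havcr2.

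Of the TAM kinases, Axl made up most of the family's RNA. Axl (ENSMUSG00000002602, chromosome 7, 25757273 to 25788705, minus strand of GRCm38) is the TAM member that DCs use most when interferon or other inflammatory signals are present. It had 28.02 and 23.17 CPM in Il33flx, against 42.94 and 28.84 CPM in Ctrl. Both Il33flx libraries were below both Ctrl libraries, but the lower Ctrl value lay close to the higher Il33flx value, and with scaling by library size alone the groups overlapped. The log2 fold change was -0.49 ± 0.26 SE (95% interval -1.11 to 0.14, unadjusted p = 0.106, adjusted p = 0.995, edgeR).

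Without Ctrl 1 the log2 fold change of Axl was -0.16 ± 0.21 SE (unadjusted p = 0.450, edgeR). Its nearest profiles among 156 genes of the lists were those of the chemokine gene Ccl5, the lipid transporter gene Abca7 and Itgae, at Euclidean distances of 0.0893, 0.168 and 0.173 in mean-centred log2 CPM over 4 libraries. All of them were highest in Ctrl 1. The 18 markers of mature DCs, Ccl5 among them, also had their highest summed level in Ctrl 1. The sums were 2305 and 2079 CPM in Il33flx and 3343 and 2239 CPM in Ctrl. Not all of these markers went that way, as Cd86, Il12b and Tmem123 were lowest in Ctrl 1. The part of mature DCs in the level of Axl was not tested.

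Mertk (ENSMUSG00000014361, chromosome 2, 128698956 to 128802894, plus strand), the TAM kinase that macrophages use to clear dead cells at rest, was scarce. It had 169 and 90 counts in Il33flx and 173 and 120 in Ctrl, or 2.39 and 1.27 CPM against 2.25 and 1.60 CPM. The groups overlapped, and the values of library 1 were above those of library 2 in either group. Its log2 fold change was -0.07 ± 0.45 SE (95% interval -1.16 to 1.02, adjusted p = 1, edgeR), and it was 0.02 with scaling by library size alone.

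Tyro3 (ENSMUSG00000027298, chromosome 2, 119797733 to 119818104, plus strand), the TAM kinase best known from brain and testis, was near the detection limit. It had 19 and 15 counts in Il33flx and 0 and 17 in Ctrl. The count of 0 in Ctrl 1 allows up to 0.0391 CPM, and the 3 other libraries had 0.212 to 0.269 CPM. The fitted log2 fold change of 1.08 ± 1.32 SE (adjusted p = 0.995, edgeR) rests on that library. It was 0.10 without Ctrl 1 and 2.67 with limma-voom. Without Ctrl 2, which leaves Ctrl at a count of 0, it was 7.14 ± 1.80 SE (unadjusted p = 0.0151, adjusted p = 0.164, edgeR), a fitted value that is no bound.

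Per kb of exon, Axl gave 90.3% and 93.4% of the summed TAM level in Il33flx and 94.3% and 93.4% in Ctrl. Mertk gave 8.959% and 5.944% in Il33flx and 5.743% and 5.998% in Ctrl, and Tyro3 less than 1% in every library. The share of Mertk in Il33flx 1 stood above the 3 others, which lay close together. In bulk RNA of sorted cells, fewer cells of a type and less RNA per cell cannot be told apart.

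The ligands of the TAM kinases were read in the same cells. Gas6, which activates all 3 kinases, had 0.977 and 0.791 CPM in Il33flx and 1.26 and 0.784 CPM in Ctrl. Pros1, the gene of protein S, had 7.52 and 7.31 CPM in Il33flx and 7.32 and 9.89 CPM in Ctrl. The groups overlapped for both.

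Of the TIM genes, Havcr2 was high and Timd4 low. Havcr2 (ENSMUSG00000020399, chromosome 11, 46454935 to 46481255, plus strand) encodes TIM-3, which binds phosphatidylserine and is also an inhibitory receptor. It had 377.1 and 362.4 CPM in Il33flx, against 248.4 and 408.2 CPM in Ctrl. The Il33flx libraries were close to each other and lay between the Ctrl libraries. The log2 fold change was 0.17 ± 0.26 SE (95% interval -0.44 to 0.79, adjusted p = 0.995, edgeR), and it was -0.13 ± 0.15 SE without Ctrl 1 and 0.57 ± 0.13 SE without Ctrl 2 (unadjusted p = 0.00972, adjusted p = 0.143, edgeR). T cells can also express TIM-3, and the gate for CD11b and MHCII would remove most of them. The 12 T cell markers summed to 602.7 and 563.2 CPM in Il33flx and 593.8 and 498.7 CPM in Ctrl, with 1 higher and 6 lower without overlap, where 15.4% of all genes were higher and 14.9% lower. Most of that sum was Cd8a, which type 1 DCs also express, at 436 and 438.3 CPM in Il33flx and 387 and 345.8 CPM in Ctrl. Cd3e had 9.11 and 6.69 CPM in Il33flx and 14.05 and 10.8 CPM in Ctrl, and the part of T cells in the level of Havcr2 was not tested.

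Timd4 (ENSMUSG00000055546, chromosome 11, 46810800 to 46844332, plus strand) encodes TIM-4, a tethering receptor for phosphatidylserine. It had 185 and 261 counts in Il33flx and 164 and 175 in Ctrl, or 2.62 and 3.68 CPM against 2.14 and 2.33 CPM. Both Il33flx libraries were above both Ctrl libraries. The log2 fold change of 0.50 ± 0.35 SE did not pass (95% interval -0.35 to 1.34, unadjusted p = 0.203, adjusted p = 0.995, edgeR) and was 0.44 ± 0.39 SE without Ctrl 1. It was 0.72 without Il33flx 1 and 0.26 without Il33flx 2, the library in which Timd4 was highest. Havcr1, the gene of the related receptor TIM-1, had 2.11 and 1.10 CPM in Il33flx and 1.98 and 1.24 CPM in Ctrl, with overlap.

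The class B receptors Cd36 and Scarb1, which are related proteins with a large extracellular loop that binds lipids, both stood high and had different profiles. Cd36 (ENSMUSG00000002944, chromosome 5, minus strand) encodes a fatty acid and oxidised lipoprotein receptor that also takes part in dead cell uptake by DCs. It had 483.3 and 468.5 CPM in Il33flx, against 332.2 and 667.0 CPM in Ctrl. The Il33flx libraries were nearly equal and the Ctrl libraries lay on either side of them. The log2 fold change was -0.07 ± 0.32 SE (95% interval -0.84 to 0.70, adjusted p = 0.998, edgeR).

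For Cd36 the direction depended on which Ctrl library was left out. Without Ctrl 1 the log2 fold change was -0.48 ± 0.14 SE (unadjusted p = 0.00514, adjusted p = 0.386, edgeR), and without Ctrl 2 it was 0.51 ± 0.12 SE (unadjusted p = 0.0127, adjusted p = 0.155, edgeR). The costimulatory gene Cd86 (also a listed mature DC marker), the type 1 DC marker Gcsam and the gene Vav3 had the nearest profiles. Their distances were 0.168, 0.254 and 0.270. They likewise were lowest in Ctrl 1 and highest in Ctrl 2. Red cell precursors and platelets also carry CD36, and the 18 erythroid and platelet markers summed to 96.8 and 57.8 CPM in Il33flx and 51.7 and 44.95 CPM in Ctrl. Of these 18, 11 were higher in Il33flx without overlap and 0 lower, against 15.4% and 14.9% of all genes, and none was at 0 in every library. The part of these cells in the level of Cd36 was not tested.

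Scarb1 (ENSMUSG00000037936, chromosome 5, 125277087 to 125341094, minus strand) encodes SR-B1, the receptor that takes cholesterol esters from high-density lipoprotein. It had 331.4 and 349.7 CPM in Il33flx, against 475.6 and 389.1 CPM in Ctrl. Both Il33flx libraries were below both Ctrl libraries, with Ctrl 2 the nearer. Its log2 fold change was -0.34 ± 0.18 SE (95% interval -0.78 to 0.09, unadjusted p = 0.103, adjusted p = 0.995, edgeR), the smallest p among the members. Without Ctrl 1 it was -0.18 ± 0.15 SE (unadjusted p = 0.232, edgeR).

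The class A receptors Msr1 and Marco, trimeric proteins with a collagen-like stalk, were both low. Marco (ENSMUSG00000026390, chromosome 1, 120474538 to 120505024, minus strand) binds bacteria and particles and in spleen marks macrophages of the marginal zone. It had 180 and 146 counts in Il33flx and 134 and 97 in Ctrl, or 2.55 and 2.06 CPM against 1.75 and 1.29 CPM. Both Il33flx libraries were above both Ctrl libraries. The log2 fold change of 0.60 ± 0.38 SE did not pass (95% interval -0.31 to 1.52, unadjusted p = 0.162, adjusted p = 0.995, edgeR), and it was 0.85 ± 0.44 SE without Ctrl 1 (unadjusted p = 0.0805, edgeR). It was 0.39 ± 0.35 SE without Ctrl 2 and 0.44 ± 0.63 SE without Il33flx 1. Of 19 macrophage markers tested, 9 had a positive and 10 a negative log2 fold change. Cd209b, another gene of marginal zone macrophages, had 2.90 and 3.06 CPM in Il33flx and 1.20 and 2.25 CPM in Ctrl, without overlap. Siglec1, which marks metallophilic macrophages of the same zone, had 2.82 and 2.53 CPM in Il33flx and 4.67 and 2.45 CPM in Ctrl, with overlap, and the part of such cells in the value of Marco was not tested.

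Msr1 (ENSMUSG00000025044, chromosome 8, minus strand), the first described macrophage scavenger receptor for modified lipoprotein, had 1.87 and 1.06 CPM in Il33flx and 1.56 and 1.69 CPM in Ctrl. The Il33flx values lay on either side of the Ctrl values. Its log2 fold change was -0.15 ± 0.43 SE (95% interval -1.20 to 0.89, adjusted p = 0.995, edgeR).

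Stab1 (ENSMUSG00000042286, chromosome 14, 31139013 to 31168641, minus strand) encodes an endocytic receptor of sinusoidal endothelium and some macrophages that can bind phosphatidylserine. Of the 9 members with counts in every library, it varied most within groups, with 177 and 50 counts in Il33flx and 208 and 31 in Ctrl, or 2.51 and 0.706 CPM against 2.71 and 0.412 CPM. Library 1 was high and library 2 low in both groups, a gap of 1.83 on the log2 scale in Il33flx and 2.72 in Ctrl. The median such gap over all genes was 0.23 in Il33flx and 0.38 in Ctrl. The log2 fold change of Stab1 was 0.04 ± 0.93 SE (95% interval -2.19 to 2.27, adjusted p = 1, edgeR), and it was 1.97 ± 0.76 SE without Ctrl 1 (unadjusted p = 0.0232, adjusted p = 0.706, edgeR), -0.76 without Ctrl 2 and -1.15 without Il33flx 1.

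An exon of Stab1 overlaps an exon of Nt5dc2 on the opposite strand. Where counting ignored strand, HTSeq would set reads of the shared stretch aside as ambiguous, which may lower the counts of both genes. Nt5dc2 had 1287 and 1361 counts in Il33flx and 1291 and 1185 in Ctrl, and the part of the overlap in the counts of Stab1 was not tested. Stab2, the gene of the related receptor stabilin-2, had 3.90 and 3.56 CPM in Il33flx and 3.43 and 1.73 CPM in Ctrl. The 13 endothelial and stromal markers summed to 109.4 and 87.6 CPM in Il33flx and 104.5 and 92.7 CPM in Ctrl, a smaller step than that of Stab1. Cdh5, Kdr and Eng were higher in library 1 of each group, as was Pecam1, though it was nearly equal in Ctrl (55.69 and 55.37 CPM). Lyve1, Col1a2 and Col3a1 were higher in library 2. Vwf, Col1a1 and Pdgfrb went in different directions in the groups. The part of such cells in the level of Stab1 was not tested.

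**Figure D3:**
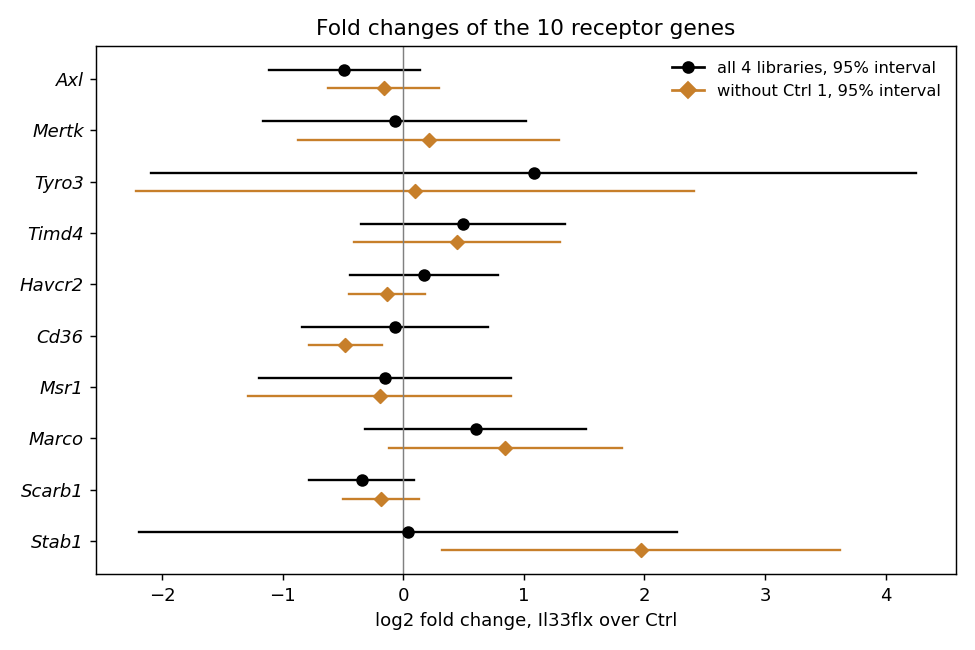
Log2 fold change of Il33flx over Ctrl with 95% intervals for the 10 receptor genes, from all 4 libraries (black circles) and without Ctrl 1 (orange diamonds). Every interval from all libraries includes 0, and without Ctrl 1 those of Cd36 and Stab1 do not, at log2 fold changes of -0.48 and 1.97 and adjusted p of 0.386 and 0.706.

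The spread of Cd36 and Havcr2 lay mostly within Ctrl. The groups of Scarb1 and Axl were apart. For Axl this was narrow, with 28.02 CPM in Il33flx 1 and 28.84 CPM in Ctrl 2, and with scaling by library size alone its groups overlapped. The gap between libraries of 1 group, on the log2 scale, was 0.04 in Il33flx and 1.01 in Ctrl for Cd36. It was 0.06 and 0.72 for Havcr2, 0.08 and 0.29 for Scarb1, and 0.27 and 0.57 for Axl. Of the 9 members with counts in every library, 6 had the larger gap in Ctrl, as did 65.4% of all genes. Mertk, Msr1 and Timd4 had the larger gap in Il33flx. Without Ctrl 1, 2 of 10 members (Cd36 and Stab1) had an unadjusted p below 0.05, against 5.67% of all genes. Without Ctrl 2, 5 of 10 (Axl, Tyro3, Havcr2, Cd36 and Scarb1) did, against 20.6%, and without Il33flx 1 or Il33flx 2 there were 0, against 2.35% and 1.95%. Members called by edgeR numbered 0 in each of these fits, which called 0.227% of all genes without Ctrl 1, 0% without Ctrl 2, 0.183% without Il33flx 1 and 0.00628% without Il33flx 2. The groups were apart for 7 members without Ctrl 1, 8 without Ctrl 2, 6 without Il33flx 1 and 7 without Il33flx 2, where 64.5%, 78.7%, 58.6% and 59% of all genes were.

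The authors' deposited table, made with DESeq2, gave log2 fold changes of -0.51 for Axl, -0.37 for Scarb1, 0.58 for Marco and 0.48 for Timd4, with unadjusted p of 0.0926, 0.122, 0.194 and 0.236. In the authors' deposited table the adjusted p was 1 to 3 significant digits for each of the 10 members.

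The wider uptake pathway was read in 6 lists of genes, in which 0 of 84 tested genes were called by edgeR. Of 14 other uptake receptors tested, 7 were higher in Il33flx without overlap and 0 were lower, against 15.4% and 14.9% of all genes. The median log2 fold change of these 14 was 0.21. Cd14, a lipopolysaccharide co-receptor that also binds apoptotic cells, had 48.9 and 52.1 CPM in Il33flx and 32.2 and 34.1 CPM in Ctrl. For this gene edgeR gave a log2 fold change of 0.61 ± 0.19 SE (unadjusted p = 0.0155, adjusted p = 0.995). Cd300lf and Cd300lb, of a receptor family that binds phosphatidylserine and other lipids, had log2 fold changes of 0.41 and 0.38, and Trem2, a lipid receptor at low counts, of 1.01. The CD300 gene with the highest CPM of the list, Cd300a, had 298.5 and 312.9 CPM in Il33flx and 306.5 and 292.6 CPM in Ctrl.

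Clec9a, with which type 1 DCs sense actin of dead cells, had 119.5 and 107.1 CPM in Il33flx and 99.8 and 110.0 CPM in Ctrl, with overlap. The 10 other scavenger receptors tested had a median of -0.01. Without overlap, 2 were higher and 0 lower, against 15.4% and 14.9% of all genes. The 2 were Cd209b and the mannose receptor gene Mrc1, whose log2 fold changes were 0.79 and 0.58. Scarf1 and the haemoglobin receptor gene Cd163 had -0.32 and -0.14. Of 11 bridging ligands and opsonins, 0 were apart in either direction, against 30.3% of all genes, and the median was -0.14. Thbs1 (thrombospondin-1) and Anxa1 (annexin A1) had log2 fold changes of 0.48 and 0.25, while the complement gene C1qb and the lectin gene Lgals3 had -0.27 and -0.17.

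Of 21 genes of the engulfment machinery, 2 were higher and 5 lower without overlap, against 15.4% and 14.9% of all genes. The median of the 21 was -0.10. Dock1, an exchange factor that activates Rac during engulfment, had 8.95 and 6.34 CPM in Il33flx and 3.88 and 5.06 CPM in Ctrl. For this gene edgeR gave a log2 fold change of 0.77 ± 0.32 SE (unadjusted p = 0.0468, adjusted p = 0.995). Rac1, the GTPase that drives the phagocytic cup, had 214.2 and 263.3 CPM in Il33flx and 311.6 and 335.7 CPM in Ctrl. For this gene edgeR gave a log2 fold change of -0.44 ± 0.18 SE (unadjusted p = 0.0512, adjusted p = 0.995). The lysosomal membrane gene Lamp1 and the exchange factor gene Vav1 had log2 fold changes of -0.34 and -0.30.

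Of 20 genes for lipid handling after uptake, 2 were higher and 5 lower without overlap, with a median of -0.19. The cholesterol exporter gene Abca1 and the lipoprotein lipase gene Lpl had log2 fold changes of -0.70 and -0.71, and the nuclear receptor gene Rxrb of -0.32. Npc1, which moves cholesterol out of lysosomes, had 0.38. Of 8 genes of restraint and shedding, 1 was higher and 1 lower. Sirpa and Cd47, the receptor and ligand of the inhibitory signal against uptake, had log2 fold changes of 0.10 and 0.41, the sheddase gene Adam10 had -0.14 and the cytokine signalling inhibitor gene Socs3 -0.30. Cd47 was low in Ctrl 1, at 402.6 and 398.2 CPM in Il33flx and 169.4 and 433.0 CPM in Ctrl. Beside these counts, 15.4% of all genes were higher without overlap and 14.9% lower, with a median of 0.01.

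**Figure D4:**
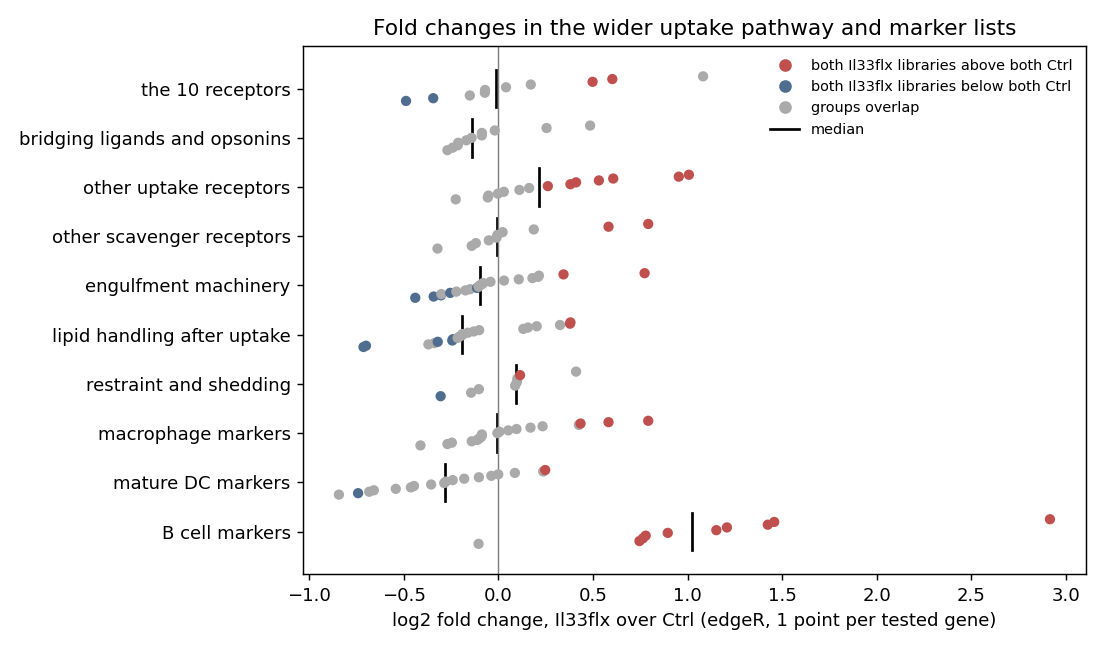
Log2 fold change of Il33flx over Ctrl for every tested gene of the receptor set, of 6 lists of the uptake pathway and of 3 marker lists, with red points where both Il33flx libraries lay above both Ctrl libraries, blue where both lay below, grey where the groups overlapped, and black bars for the median. The other uptake receptors have a median of 0.21 with 7 of 14 points red. The B cell markers have a median of 1.02 with 9 of 10 red, and the 10 receptors a median of -0.01. Of all genes tested, 15.4% lay above and 14.9% below without overlap.

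Without Ctrl 1, the median of the other uptake receptors was 0.43, and 10 of 14 were higher and 1 lower without overlap, where 32.5% of all genes were higher and 32% lower. In that fit the medians were 0.04 for the bridging ligands and opsonins, 0.17 for the other scavenger receptors and -0.09 for the engulfment machinery. They were 0.02 for lipid handling and -0.12 for restraint and shedding, against 0.02 over all genes. The medians of the ligand, scavenger, lipid and restraint lists thus had the other sign than with all libraries. Cd14, Cd300lf and Cd300lb are also genes of monocytes and neutrophils. Of the markers of other cells that the gate could hold, 19 of 20 macrophage genes were tested and 0 called, 3 were higher and 0 lower without overlap, and their summed level was 1597 and 1514 CPM in Il33flx and 1666 and 1345 CPM in Ctrl. Adgre1, which encodes F4/80, had 76.1 and 63.2 CPM in Il33flx and 69.3 and 54.6 CPM in Ctrl, and Clec4f, a gene of liver macrophages, was at 0 in 3 of the 4 libraries. The 10 monocyte markers summed to 958.8 and 735.0 CPM in Il33flx and 680.0 and 1123 CPM in Ctrl, with 1 higher and 0 lower without overlap. The 10 B cell markers summed to 188.5 and 158.7 CPM in Il33flx and 143 and 120.9 CPM in Ctrl, with 9 higher and 0 lower. For these counts from all libraries, the shares over all genes were 15.4% higher and 14.9% lower. The part of these cells in the low receptors was not tested.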

How the data were processed

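Values analysed were whole-number gene counts, deposited without normalization. Trimmomatic 0.39, STAR, HTSeq and DESeq2 with build GRCm38 are named in the submitters' processing notes. For other versions, the annotation release and the strand setting, the sources used here say nothing. The 5 HTSeq summary rows stayed out, which left 69.94% to 72.18% of the entries in genes.

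In the authors' deposited table of 15001 genes, per-library signal columns are counts divided by a size factor, log2 columns the fold change of Il33flx over Ctrl and its standard error, the score column a Wald statistic and p-value columns unadjusted and adjusted p.

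Groups were compared with edgeR 4.0.16 in R 4.3.3 (filterByExpr, TMM, quasi-likelihood F test, no covariate, Benjamini-Hochberg over 14995 genes, called below 0.05). SE is the log2 fold change over the square root of F. DESeq2 1.42.0 and limma 3.58.1 (voom), other scalings and filters, the replicate number as a block and leaving out each library were alternatives. The fit was tested on simulated counts. A permutation test of 2 against 2 libraries could not reach p below 0.05 and was not run. Exon lengths and coordinates came from GENCODE M21, promoters from RefSeq. A count of 3 stands for the limit that a count of 0 allows and covers counting error only.

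The members and lists were chosen with earlier results of these data known. Named were all members, of each pathway list the 4 genes with the smallest p, and the 3 genes of at least 5 CPM with profiles nearest to Cd36 and Axl. Genes named beyond that rule, such as ligands, relatives and cell markers, were chosen after their values were seen.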

Additional observations from a re-analysis of the deposited data

How the results depend on the processing

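The receptors had 0 calls by every alternative run, with 9 of 10 tested under the filter of 1 CPM, which left out Tyro3. The number of genes called over all genes was 1, and it was 53 with DESeq2, 0 with limma-voom, 0 with library size alone, 0 with no filter, and 0 to 36 with 1 library left out (36 without Ctrl 1, 0 without Ctrl 2, 29 without Il33flx 1). With the replicate number as a block it was 33, none of them a receptor. The numbers are not known to pair the libraries, as the deviations of same-numbered libraries correlated at -0.03 and there were 2 pairs. With 1 library left out, 0 to 5 receptors had an unadjusted p below 0.05 (2 without Ctrl 1, 5 without Ctrl 2), and 6 to 8 were apart in place of 4, as fewer libraries leave fewer orders. A lone library was assumed to vary like the other group.

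Of 109 refitted fold changes of the receptors, 99 kept their direction and 10 did not. Mertk had a log2 fold change of 0.020 with library size alone, and Cd36 had 0.016 both with limma-voom and with the replicate block. The other reversals came with 1 library left out. The log2 fold changes then ranged from -0.60 (without Il33flx 1) to 0.35 (without Il33flx 2) for Mertk, with 0.21 without Ctrl 1, and from -0.13 (without Ctrl 1) to 0.57 (without Ctrl 2) for Havcr2. The range for Cd36 was -0.48 (without Ctrl 1) to 0.51 (without Ctrl 2), for Msr1 -0.62 (without Il33flx 1) to 0.23 (without Il33flx 2), and for Stab1 -1.15 (without Il33flx 1) to 1.97 (without Ctrl 1), with -0.76 without Ctrl 2. Of the 24 other named genes, 18 moved by over 1.5 times or reversed with at least 1 library left out. The number was 13 without Ctrl 1, 13 without Ctrl 2, 9 without Il33flx 1 and 8 without Il33flx 2. Without Ctrl 1, C1qb had -0.02, Anxa1 0.02 and Vav1 -0.09. Reversals came for 6. Thbs1 ranged from -0.14 to 0.95, Lgals3 from -0.36 to 0.044, Scarf1 from -0.73 to 0.25, Cd47 from -0.10 to 1.235, Adam10 from -0.33 to 0.052 and Sirpa had -0.0057 without Ctrl 2 and -0.0074 without Il33flx 1. The cause was not tested. Low counts limit Tyro3, with 0 to 19 counts, and the 0 was in Ctrl 1, the library with the most gene counts.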
